A study of Mus musculus with 12 samples.

Results

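N6-methyladenosine (m6A), the most common internal mark of mRNA, was followed here on the transcripts of 5 genes for abundant plasma proteins and apolipoproteins in mouse liver: Alb, Ttr, Hp, Apoa1 and Apob. The genes were taken by name from the authors' table of m6A peaks, with every peak listed for each. This gave 13 of 17503 peaks and 5 of 10277 genes. Livers of C57BL/6 mice, wild type or Mettl3-deficient, were profiled by m6A immunoprecipitation and sequencing of poly(A) RNA, with 3 biological replicates of each genotype and an immunoprecipitated and an input library from each. The title of the series calls the livers postnatal. The labels used here do not state the age in days, the sex, the allele or the driver behind the deficiency, or what the wild-type mice carry beside their strain. The cells in which Mettl3 was lost are therefore not known here. Of 8 hepatocyte genes fixed as markers, 6 had a listed peak. Alb, Ttr and Apoa1 are both markers and members, so their peaks were known in advance. A listed peak is no check of the tissue, and the table holds no expression level with which to make one.

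m6A is written on mRNA by a nuclear complex whose catalytic subunit is METTL3, mostly within the short DRACH consensus (A, G or T, then A or G, then A and C, then A, C or T). Marked sites are common in long internal exons and around stop codons, and reader proteins of the YTH family bind them and can speed the decay of the transcript. Anti-m6A antibodies also bind m6Am, a methylated A next to the cap that is made by another enzyme, PCIF1. In liver the 5 genes are typical of hepatocytes, which secrete most plasma proteins. Albumin carries fatty acids, hormones and drugs and sets the oncotic pressure of plasma, and transthyretin carries thyroxine and, with retinol-binding protein, vitamin A. Haptoglobin captures free haemoglobin and is an acute-phase protein. Apolipoprotein A-I is the main protein of high-density lipoprotein, and apolipoprotein B is the scaffold of very-low-density and low-density lipoprotein.

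The sequence around the transcript start is shown because the 5′ peaks of Apoa1 and Apob begin near it, while Alb had no listed 5′ peak. A window of 250 bases before to 50 bases after the start was given for these 3 genes by RefSeq (GRCm38.p6, the same build as mm10). Each line gives 25 bases before the start in lower case and the first 5 transcribed bases in capitals, on the plus strand.
Alb, chr5:90460845-90460874: atctacagttattggttaaagaagtATATT
Apoa1, chr9:46228605-46228634: atcgccagcaaaagtaagcagtggcAGGGC
Apob, chr12:7977652-7977681: tcatcagtgcctgcagtggatcaagTACCT
Counted from the starts drawn here, the first transcribed base was A in Alb and Apoa1 and T in Apob. Over all 32851 windows it was A in 34.4% and T in 13.7%. The 5′ peak of Apoa1 began at base 39 from the start drawn here, beyond the bases shown. The peak of Apob began 29 bases before the start drawn here and 19 bases inside the RefSeq span of the gene, which opens further upstream. The authors' annotation gives both 5′ peaks a distance of 0 from the transcript start, so its starts need not be those drawn here. With another start the first base and the counted positions would differ.

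Within the first 50 bases from the starts drawn here, a match to DRACH on the sense strand was present in Apob alone of the 3 genes. It began at base 25, lies inside the 5′ peak, and is shown in capitals with 12 bases on either side.
Apob, chr12:7977689-7977717: ctccgcctccgaAGACCctgtagagcaag
Of all windows, 54.4% held such a match in their first 50 transcribed bases, and 5.76% held GGACT on the sense strand, which none of the 3 genes did. The match is a description of the sequence, and whether this base is methylated was not measured.

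The comparison of the genotypes asks which m6A peaks of the liver depend on Mettl3. In it 12 of the 13 peaks were called, 7 of them negative and 5 positive. A peak was called when the false discovery rate (FDR) that the authors give for it was 0.05 or below, and of all listed peaks 76.2% were called, 40.6% as negative and 35.6% as positive. Among called peaks alone 53.3% were negative. Which genotype stands in the numerator is not stated in the header of the column. METTL3 adds the mark, and on the design alone a negative value would mean less enrichment in Mettl3-deficient liver, so values are given here only as negative or positive. Whether each fold change was corrected for the amount of input RNA is not given in the sources used here, so a change in the methylated share and a change in the amount of RNA cannot be told apart. Nor can fewer cells of a type be told apart from less RNA per cell in these whole-liver samples. The table holds 1 value per peak and none per library, so no error between mice can be given.

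Negative values of the 5 genes were larger than the positive ones, as in the whole table. Over the 7 negative called peaks the median log2 fold change was -1.78, against -1.34 over all negative called peaks. Of these 7 peaks 5 belong to Apob, so the median mostly describes that gene. The negative peaks of Hp (-1.27) and Apoa1 (-1.11) were nearer 0 than -1.34. For the 5 positive ones it was 0.86, against 0.73. All positive values lay between 0.55 and 0.93 in the authors' deposited table, so none reached 1 on the log2 scale, and all 7 negative ones lay beyond -1. Of all listed peaks 36.8% were called with a change of at least that size. In every one of the 4 genes with a 5′ UTR peak its value was positive, and 3 of these 4 peaks were called. Of all 5′ UTR peaks 76.4% were called, and of those 69.9% were positive. Among the 5 peaks of the 3′ UTR, all called, 3 were negative and 2 positive, while 81.0% of all 3′ UTR peaks were called and 60.4% of those were negative. All 4 internal exon peaks belonged to Apob and were called and negative. Of all exon peaks 62.5% were called, and 61.8% of those were negative.

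**Figure D1:**
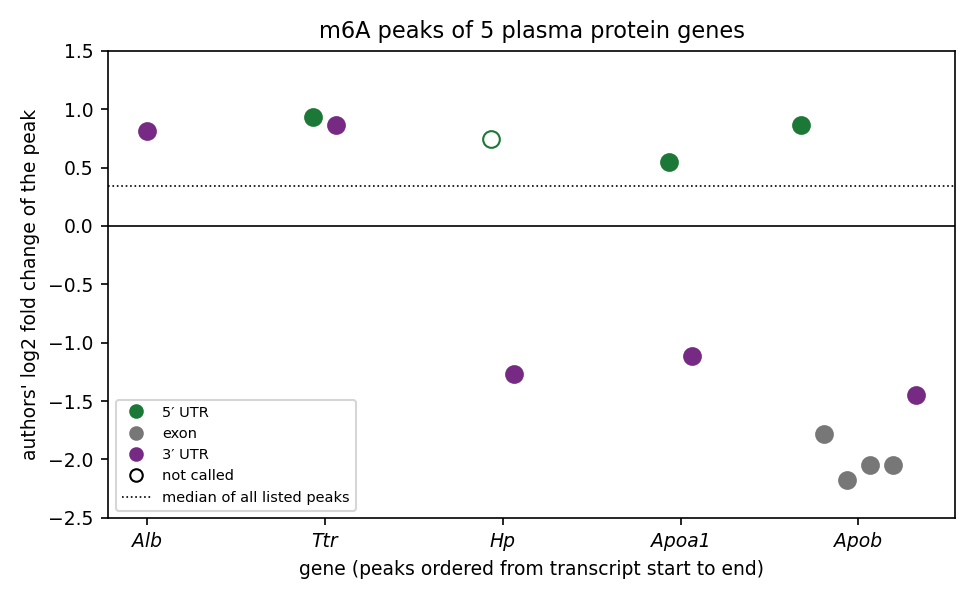
Log2 fold change (vertical axis) of each of the 13 listed m6A peaks of Alb, Ttr, Hp, Apoa1 and Apob, ordered within a gene from transcript start to end. Colours give the annotated feature, the open circle is the peak of Hp that was not called, and the dotted line is the median of all listed peaks, 0.34. The 5′ UTR peaks all sit above 0, and below 0 lie the 3′ UTR peaks of Hp, Apoa1 and Apob and the exon peaks of Apob.

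Alb had a single listed peak, at the end of the transcript, and its change was positive. The peak covers chr5:90475331-90476602 (1272 bp on the genome, labelled 3′ UTR) and ends on the last base of the RefSeq span, which runs from 90460870 to 90476602. In the authors' deposited table its log2 fold change was 0.81, a ratio of 1.75, at the floor of the FDR scale (log10 FDR -434). A share of 85.8% of the 7943 called 3′ UTR peaks had a lower value. The gene spans 15.7 kb, and 8.08% of it lay in the peak.

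Ttr was positive at both ends and to nearly the same degree. Its 5′ peak covers chr18:20665310-20666495 (1186 bp), 30 bp from the transcript start by the authors' annotation and 1101 bp inside the longer RefSeq span. For this peak the authors' deposited table gives 0.93, a ratio of 1.91, at the FDR floor. The 3′ peak, chr18:20674173-20674321 (149 bp), stood at 0.86, a ratio of 1.82, with a log10 FDR of -26 in the authors' deposited table. It ends 5 bp before the RefSeq end, and 88.0% of called 3′ UTR peaks had a lower value. Alb and Ttr, both carriers of hormones, thus had no negative peak in the table.

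Hp differed between its ends. The gene lies on the minus strand, and its 3′ peak at chr8:109575128-109575901 (774 bp) opens on the last base of the RefSeq span. For it the authors' deposited table gives -1.27, a ratio of 0.415, at the FDR floor. The 5′ peak, chr8:109578994-109579172 (179 bp), starts at the first base of the transcript. Its value of 0.74 in the authors' deposited table was not called, with an FDR of 0.155 and a deposited p-value of 0.09. It was the only peak of the 5 genes that was not called.

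Apoa1, the shortest of the genes at 1.84 kb, carried called peaks of opposite sign. Its 5′ peak at chr9:46228668-46228874 (207 bp) stood at 0.55, a ratio of 1.46, and its 3′ peak at chr9:46229255-46230466 (1212 bp) at -1.11, a ratio of 0.463, both at the FDR floor in the authors' deposited table. The positive value is the smallest of the 5 genes, and 43.2% of called 5′ UTR peaks had a lower one. Both peaks together cover 77.1% of the gene, and the longer one fills 65.9% of it, so the label of 3′ UTR does not give its extent.

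Apob, at 39.2 kb the longest gene, had 6 called peaks, with 1 positive at the start and 5 negative over the last part. At least 6 listed peaks were present in 73 genes of the table, and at least 5 negative called peaks in 44. The 5′ peak, chr12:7977648-7979301 (1654 bp), stood at 0.86, a ratio of 1.82, in the authors' deposited table. With a log10 FDR of -2.77 (FDR 0.00170), its evidence was the weakest among the called peaks of the 5 genes. Then followed a stretch with no listed peak up to 28385 bp from the transcript start of the authors' annotation, which lies upstream of the start drawn above.

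The 4 exon peaks of Apob all carry the label exon 26 of 29, the long exon that also holds the codon edited by APOBEC1 to give the short form of the protein. From start to end the authors' deposited table gives -1.78 at chr12:8006033-8007532, -2.18 at chr12:8007681-8009569, -2.05 at chr12:8009809-8011756 and -2.05 at chr12:8012416-8012835. These are ratios of 0.291, 0.221, 0.241 and 0.241, and the values spanned 0.40 on the log2 scale. Gaps of 148, 239 and 659 bp part the peaks, which cover 5757 bp, or 84.6%, of a stretch of 6803 bp. Over all genes 15 exons held at least 4 listed peaks. In 11 of these all peaks were negative, and none had more bases in peaks than the exon of Apob, the next having 5345. Reads of neighbouring peaks come from the same transcript, so the 4 values are not independent of each other.

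The last peak of Apob, chr12:8015067-8016026 (960 bp, labelled 3′ UTR), stood at -1.45, a ratio of 0.366, at the FDR floor in the authors' deposited table. This value is nearer 0 than each of the exon peaks. The peak ends 813 bp before the RefSeq end, so unlike the 3′ peaks of the other 4 genes it does not reach the end of the transcript.

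**Figure D2:**
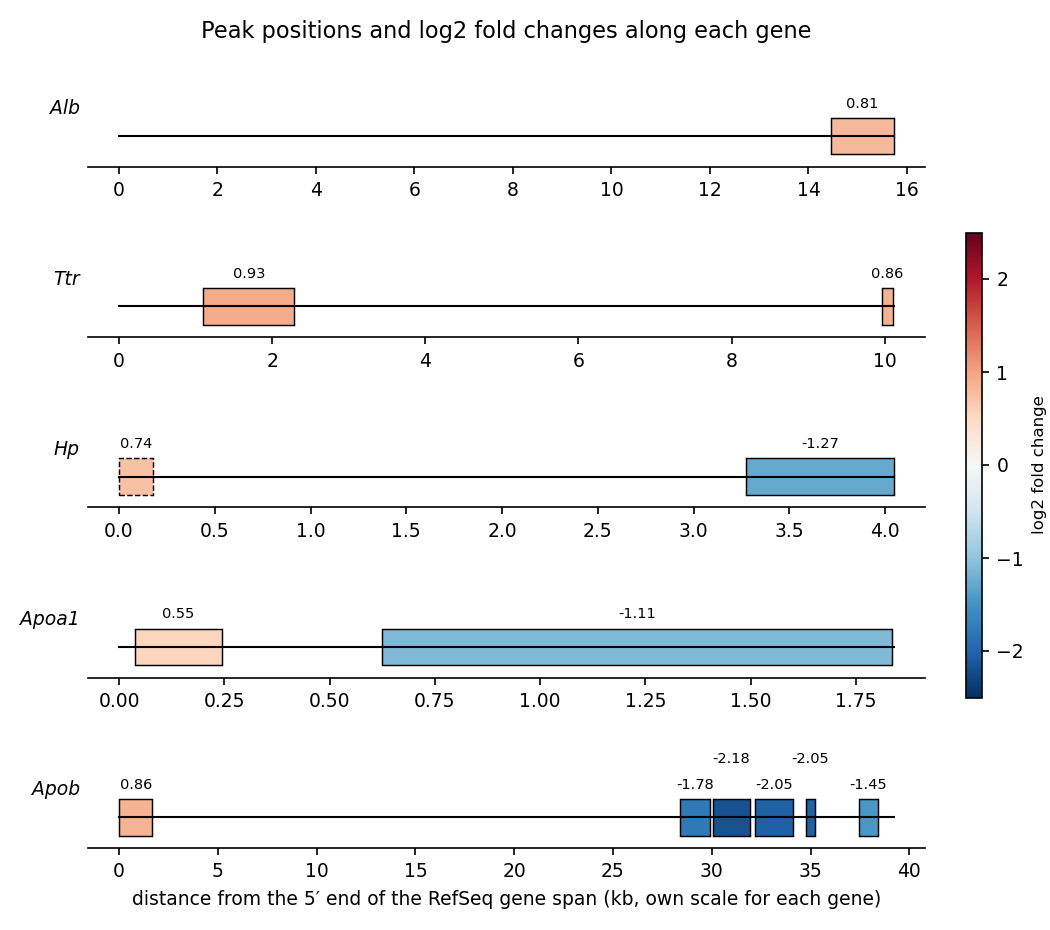
Listed peaks (boxes) along the RefSeq span of each gene, in kb from its 5′ end and with a scale of its own for each gene; the number over a box and its colour give the log2 fold change, and a dashed edge marks the peak that was not called. In Hp, Apoa1 and Apob the first box is positive and all later ones negative, and in Ttr both boxes are positive.

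Set end against end within a gene, the 3′ value was lower than the 5′ value in all 4 genes with a peak in each UTR. The difference, 3′ minus 5′, was -2.31 on the log2 scale in Apob, -2.01 in Hp, -1.66 in Apoa1 and -0.07 in Ttr. For Hp the 5′ value in it was not called. In all, 1475 genes had called peaks labelled 5′ UTR and called peaks labelled 3′ UTR. Their median difference was -0.45 (quartiles -1.66 and 0.02), and it was below 0 in 73.5%. The difference of Apob was lower than in most of them, with 13.2% of genes below it. Below Apoa1 were 24.9% of genes, and below Ttr 68.1%. A positive 5′ and a negative 3′ value, as in Apoa1 and Apob, was present in 35.3% of the 1475 genes, and 39.1% were positive at both ends, as was Ttr. Called peaks of both signs occurred in 15.3% of the genes with a called peak and in 37.4% of those with at least 2. Ends were taken by label alone, and peaks with different labels can overlap. In Apoc2, counted among the 1475 genes, the leading 5′ UTR peak contains the 3′ UTR peak. With 1 value per peak the differences have no error and were not tested.

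**Figure D3:**
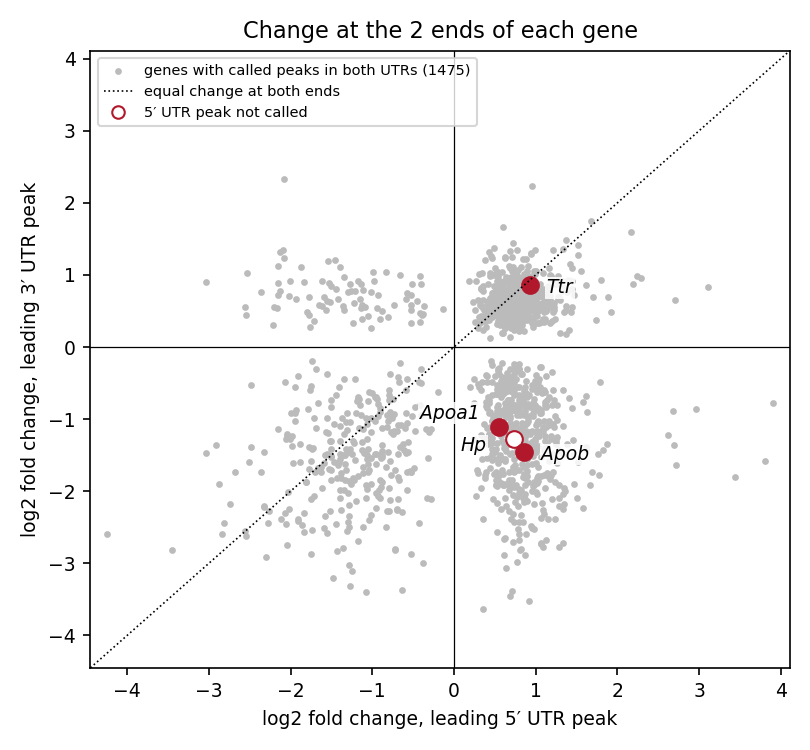
Log2 fold change of the leading 5′ UTR peak (horizontal) against that of the leading 3′ UTR peak (vertical) for the 1475 genes with called peaks in both UTRs (grey) and for Ttr, Hp, Apoa1 and Apob (red; open where the 5′ peak was not called). Apoa1, Hp and Apob lie in the lower right, positive at the 5′ and negative at the 3′ end, and Ttr lies near the dotted line of equal change.

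Where a 3′ UTR peak lay relative to the end of the transcript varied with its sign in the whole table, a comparison made after the data were seen. Of the called 3′ UTR peaks that ended within 10 bp of the RefSeq end, 40.6% of 1587 were negative (median log2 fold change 0.46). For those that ended 11 to 1000 bp before it the share was 58.0% of 1611 (median -0.63), and for those further inside 77.2% of 2480 (median -1.21). A further 398 ended past the RefSeq end by more than 10 bp, and 199 of them were negative. Peaks that reached the end also differed by width, with 25.8% of 926 negative at up to 500 bp and 61.4% of 661 above that. The short 3′ peak of Ttr, at 149 bp, was positive, like most peaks of its class. The wide 3′ peaks of Hp and Apoa1 were negative, as most wide ones were. Alb, with 1272 bp, was positive, unlike most of the wide class. The 3′ peak of Apob, 813 bp from the end, belonged to the middle class and was negative. These shares are over peaks of genes with a strand in the RefSeq table, which Hp and Ttr lack, and they were not tested.

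The evidence behind these peaks was strong beside that of the whole table. The authors' FDR scale has a floor at a log10 of -434, and 8 of the 13 peaks (61.5%) sat on it, against 2.77% of all listed peaks. Read depth is not known from the table. At this floor even small changes are called. The smallest was 0.17 on the log2 scale, in an exon peak of Apoe in the authors' deposited table. A floor FDR alone thus does not mean a large change, although the median absolute change at the floor was 1.89. Over all called peaks the median was -1.34 for negative and 0.73 for positive ones. Of all 485 peaks at the floor, 87.2% were negative. Alb, Ttr and Apoa1 held 3 of the 62 positive ones, and the 5′ peak of Ttr was among the 5 highest of these.

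All 5 genes share the GO terms extracellular space and extracellular region in the table. For the first, 556 genes (5.41%) had a listed peak, and of the 446 with a called leading peak 40.1% were negative. The leading peak is the one with the smallest FDR, ties going to the larger change. By the same measure 81.1% of all listed genes were called (47.6% as negative), and 58.6% of the called ones were negative. By leading peak Hp, Apoa1 and Apob were negative, and Alb and Ttr positive. These shares overlap, since genes of the term are part of the whole, and were not tested.

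Other plasma protein genes, in 4 lists chosen with earlier results of these data known, were more often positive than negative by leading peak. Of 74 genes 57 had a listed peak, and 56 were called, 18 as negative and 38 as positive. The median over the 57 was 0.56, against -0.52 over all genes. Over all listed genes 47.6% were called negative and 33.6% positive by leading peak, and these shares are the background for each list below, none of which was tested.

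Among the other apolipoproteins, 10 of 12 had a listed peak, and 3 were negative and 7 positive, all called (median 0.565). The authors' deposited table gives -1.99 for Apon, -1.82 for Apoa5, which raises the clearance of triglyceride, and -1.56 for Apof. Positive values in the authors' deposited table were 0.78 for Apoc2, the activator of lipoprotein lipase, 0.76 for Apoa2, the other main protein of high-density lipoprotein, and 0.70 for Apoc1. Each of these 6 peaks was at the FDR floor. Of the 10 genes 5 had at least 2 called peaks, and none of these had both signs, beside 37.4% of all genes with at least 2 called peaks. The leading peaks of Apoa5, Apoc1 and Apoc2, all labelled 5′ UTR, are 3287, 3180 and 6363 bp wide, so their label says little of which end they come from. Some listed peaks of Apoc2 overlap, as do some of Apon, so the peaks counted within a gene are not all separate regions.

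Genes of lipoprotein assembly and turnover were negative in 6 and positive in 8 of the 14 with a listed peak, out of 18, and all were called (median 0.325). The authors' deposited table gives -2.33 for Abca1, which loads lipid on APOA1. Its leading peak is labelled 3′ UTR, while for a further called 3′ UTR peak of Abca1 the authors' deposited table has 0.62, with a log10 FDR of -1.67. Called peaks of both signs were present in 2 of the 4 genes of this list with at least 2 called peaks. Also negative in the authors' deposited table were P4hb (-0.84), which encodes a subunit of the transfer protein that lipidates APOB, and Angptl4 (-1.38), an inhibitor of lipoprotein lipase. Cideb, which acts in the lipidation of very-low-density lipoprotein, was positive at 0.78 in the authors' deposited table.

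Carriers and binding proteins had no negative called peak. Of 15 genes 11 had a listed peak, 10 were called, all positive, and 1 was not called (median 0.76). The authors' deposited table gives 0.82 for Trf (transferrin, the iron carrier), 0.81 for Gc (the vitamin D carrier), 0.76 for Ambp, 0.68 for Fabp1 (a fatty acid carrier inside the cell), 0.61 for Selenop (the selenium carrier) and 0.48 for Hpx (the haem carrier). Alb at 0.81 and Ttr at 0.93, themselves carriers, lie within or near this range in the authors' deposited table. The count of 10 of 11 stands beside the 33.6% of all listed genes that were called positive.

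Acute-phase proteins, protease inhibitors and fibrinogen, the group nearest to Hp, were negative in 9 and positive in 13 of the 22 genes with a listed peak, out of 29, and all were called (median 0.52). Of the leading values, the authors' deposited table has -1.76 in Crp and -1.34 in Apcs (both pentraxins), -1.62 in Serpina3k and -1.27 in Serpina3n (protease inhibitors), -1.37 in Fga (a chain of fibrinogen) and -0.89 in Serpinf2 (the inhibitor of plasmin). The value of Serpina3n equals that of Hp at its 3′ peak, but it comes from a peak labelled 5′ UTR and 4455 bp wide. The leading peaks of Crp, Apcs and Fga are labelled 5′ UTR as well, while no 5′ UTR peak of the 5 genes was negative. Members with a positive leading peak at the FDR floor, chosen after their values were seen, were Fgb, another chain of fibrinogen, at 0.55, Orm1 at 0.77, Hamp, the gene of the iron hormone hepcidin, at 0.79, Serpina1c at 0.79 and Serpinc1 (antithrombin) at 0.69 in the authors' deposited table. Some named genes were of mixed sign in the authors' deposited table. Fgb also had a called 3′ UTR peak of -0.29 at the FDR floor, and Serpinc1 called 3′ UTR peaks down to -1.24. Crp also had a called positive 3′ UTR peak, at 0.28. At least 2 called peaks were present in 12 of the 22 genes, and 7 of these 12 had both signs, beside the 37.4% over all such genes. The serpin genes belong to families of similar sequence, among which reads can be shared.

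**Figure D4:**
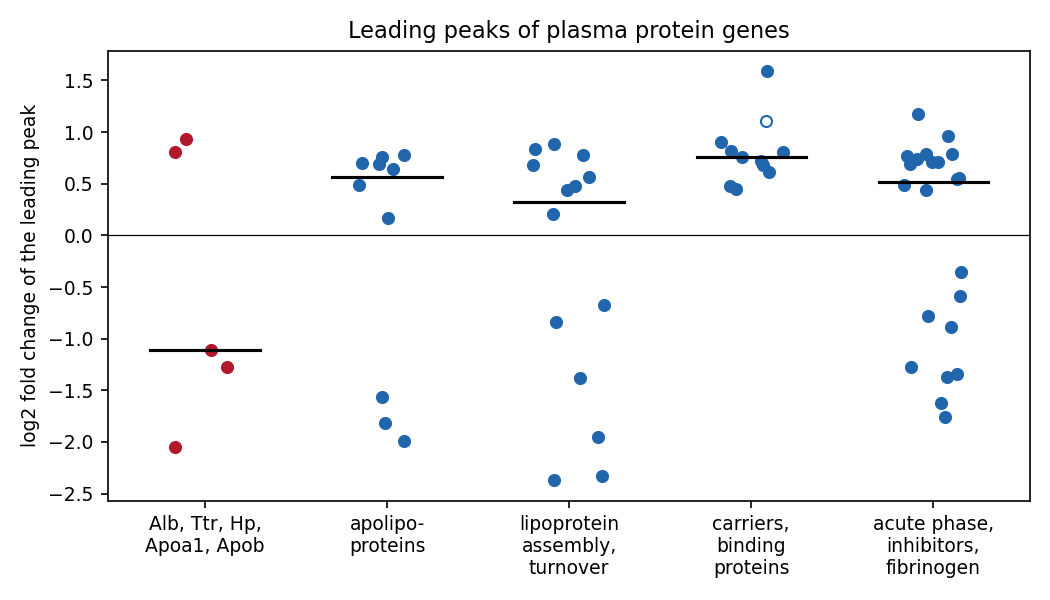
Log2 fold change of the leading peak (vertical axis) for the 5 genes (red) and for the genes of the 4 other lists (blue; the open circle was not called), 1 point per gene, with a bar at the median of each group. Alb and Ttr lie at the height of the carriers, all of which are above 0, while the other lists hold genes on both sides.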

How the data were processed

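The only source of values was the table in which the authors compared the genotypes peak by peak. The submitters' processing notes name HISAT2 2.1.0 and the mm10 build. How peaks were called, filtered and compared is not given in the sources used here. The deposited columns hold, per the file headers, a log2 fold change and the log10 of the FDR of each peak, here a score because it has a floor (-434, the next value being -321). They also deposited a p-value rounded to 2 decimals and other measures (start, end, width on the genome with introns, distance from the transcript start). Of 17692 rows, 189 with cells in another order were left out, none of them of the 5 genes.

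Counts, medians, shares and differences between ends were computed with Python 3.11.15, numpy 2.4.6 and pandas 2.3.3, and the steps were tested on simulated data. No values per library were used, so no new test was made. The members, gene lists and rules were chosen with earlier results of these data known. Of each list up to 6 called genes with the smallest FDR are named, except some that are not reported here by name but stay in the counts; other genes were chosen after their values were seen. Alternatives changed the FDR threshold, the size of change, the zero point, the width, the rows and spans used and the choice of peak. The comparison by position of the 3′ UTR peak was added later. RefSeq start windows matched 3 of the 5 genes, all but Hp and Ttr.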

Additional observations from a re-analysis of the deposited data

How the results depend on the processing

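No paired analysis was possible because the table holds 1 value per peak and none per replicate, so leaving out replicates was not possible either. Of 58 alternative values, 51 were unchanged or, for counts, within 1.5 times the main count, and none changed sign. Part of the 51 could not change, so this tally is no measure of robustness. Ttr, Hp, Apoa1 and Apob have a single peak in each UTR, so the choice of peak cannot alter their differences. Nor can the order of rows alter a count. Among the 7 values that moved, the median difference between the ends over all genes went from -0.45 to -0.44 with the largest change or the mean of each end. When only changes of 1 or more (log2) counted, 7 of the 12 called peaks of the 5 genes were left, all negative and 0 positive. With peaks of at most 1000 bp, 5 were left, 3 negative and 2 positive, and only Hp kept a difference between its ends. With values centred on the median listed peak, 0.34, no peak of the 5 genes changed sign, while the leading peak of Apoe turned negative. Depth is unknown, so its limit on these values is too.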

Other observations

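Apolipoprotein genes lie in clusters, and the genes of 2 such clusters were looked at together after their values were seen. Apoe, Apoc1, Apoc4 and Apoc2 lie within 29.7 kb on chromosome 7 of the RefSeq table, and each of the 8 called peaks of these 4 genes was positive, beside 46.7% of all called peaks. The 8 are not separate regions, so part of the signal is counted more than once. The leading peak of Apoc2 overlaps both of its other peaks, and another peak of Apoc2 overlaps both peaks of Apoc4. The leading values in the authors' deposited table were 0.17 in Apoe, 0.70 in Apoc1, 0.69 in Apoc4 and 0.78 in Apoc2. With values centred on the median listed peak, 0.34, Apoe would be negative. Neighbouring genes of this cluster can share reads where transcripts run on into each other, and the peaks of Apoc2 labelled 5′ UTR are 6363 and 8078 bp wide.

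Apoa1, Apoc3, Apoa4 and Apoa5 lie within 43.3 kb on chromosome 9. Here the leading values in the authors' deposited table were -1.11 in Apoa1, 0.49 in Apoc3 and -1.82 in Apoa5, and Apoa4 had no listed peak. The genes of this cluster thus differed in sign, and the difference between the clusters was not tested.

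Genes with a positive peak at the floor of the FDR scale numbered 56, and 37.5% of them carry the GO term extracellular space, against 12.3% of the 383 genes with a negative peak at the floor. Of the 62 positive peaks, 3 belong to Alb, Ttr and Apoa1 and 22 to genes of the 4 plasma protein lists. The median of the 62 was 0.71. Transcript abundance was not analysed here, and its part in this was not tested.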
